A study of Mus with 4 samples.

Results

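The genes described here encode enzymes that add or remove N6-methyladenosine (m6A) on RNA, or other proteins of the complex that adds it. The question is where their own transcripts carry m6A in interscapular brown adipose tissue (iBAT) with and without *Wtap* in brown adipocytes. The 10 members were *Wtap*, *Mettl3*, *Mettl14*, *Zc3h13*, *Cbll1*, *Rbm15*, *Rbm15b*, *Mettl16*, *Fto* and *Alkbh5*, taken by gene symbol and not by any measured value. Earlier results of these data were known when the members were chosen. They held 27 of the 18400 m6A peaks listed for control iBAT and 24 of the 18693 listed for knockout iBAT. Peaks were listed for 8 of the 10 members in each list, and *Mettl3* and *Mettl14* had none in either.

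The data came from MeRIP-seq, in which fragmented poly(A)+ RNA is pulled down with an m6A antibody (the IP) and a stretch with more reads in the IP than in the same RNA before the pull-down (the input) is called a peak. The controls were C57BL/6 mice homozygous for a floxed *Wtap* allele (Wtapflox/flox, loxP sites around exon 4) without Cre. The knockouts (BKO, labelled Wtap flox/flox UCP1-iCre) carried the same floxed alleles together with iCre inserted at the *Ucp1* locus, which is active in brown adipocytes. Both genotypes were 8 weeks old and fed normal chow. Each of the 4 samples, an IP and an input per genotype, was pooled from 8 mice, so there is 1 peak list per genotype and no replicate, and no difference below was tested. Other cells of the tissue keep *Wtap*, and in whole tissue fewer cells of a type and less RNA per cell cannot be told apart.

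m6A is written in the nucleus by a complex whose catalytic core is METTL3 bound to METTL14. WTAP holds this core in nuclear speckles and ties it to a larger group of regulators, among them ZC3H13, the RING finger protein CBLL1 (HAKAI), VIRMA, and the RNA-binding proteins RBM15 and RBM15B. METTL16 is a separate methyltransferase that acts on the U6 small nuclear RNA and on the *Mat2a* transcript. FTO and ALKBH5 are the demethylases that remove the mark.

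Each peak in the lists has a fold enrichment, the authors' ratio of IP to input in that genotype, and a false discovery rate (FDR), given below as its log10 so that a more negative value is a stronger peak. The lists were called separately and their read depth is unknown. For this reason a knockout fold enrichment is to be read against the median knockout to control ratio of all paired peaks, which was 0.783. This median was 0.538 where the control fold enrichment was at least 10 and 0.91 below 10, so the control value matters too. Where a list has no peak, the only statement possible is that none passed the authors' threshold. Peaks of the lists were matched when they overlapped on 1 strand by 1 or more exonic bases. Positions are those of GRCm38, and distances run along the gene span of the RefSeq table, introns included.

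The marker genes of brown adipocytes, such as *Ucp1* and *Cidea*, had a peak in either list for 10 of 10 genes, and 9 of them in both. Peaks in knockout iBAT only were listed for 3 of 7 macrophage markers, 1 of 7 lymphocyte markers and 4 of 7 skeletal muscle markers. Peaks in control iBAT only were listed for 0 of these 21. A peak in either list was present for 6 macrophage, 2 lymphocyte and 6 muscle markers. Of all genes with a peak in either list, 14.9% were in knockout iBAT only and 15.0% in control iBAT only. The lymphocyte marker was *Ptprc*, with 91 bases and a log10 FDR of −1.92. Total peaks went from 4 to 13 on the macrophage list and from 2 to 10 on the muscle list. Brown adipocyte markers had 29 and 27 in total, but single genes differed both ways. *Prdm16* had 8 control peaks and 1 knockout peak, *Elovl3* 2 and 0, and *Pparg* 1 and 4. Such counts also change where calls are merged or split. *Prdm16* had 1746 control and 1230 knockout bases, with 932 in both. *Pparg* had 866 and 1019, with 510 in both, and its best log10 FDR was −204 in control and −94.9 in knockout iBAT. Of the fibroblast markers, 5 of 5 were in both, with 2338 exonic bases under control and 4703 under knockout peaks and a stronger best FDR in knockout iBAT for 5 of 5. The bases were 873 and 2641 on the macrophage, 270 and 751 on the lymphocyte, 269 and 2398 on the muscle and 7838 and 6875 on the brown adipocyte list. The lymphocyte markers *Cd3e* and *Ms4a1* had none in either. The part of these differences in the members' peaks was not tested.

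Across the members, 7 of 27 control peaks (25.9%, 95% Wilson interval 13.2% to 44.7%) had no knockout peak on them, beside 32.2% over all control peaks. In the other direction 3 of 24 knockout peaks (12.5%, interval 4.34% to 31.0%) had no control peak on them, beside 32.0% over all knockout peaks. The intervals describe counting error alone, with each peak taken as independent, and the control interval contains the value over all peaks. The knockout interval ends just below it, but contains it (3 of 23, interval 4.54% to 32.1%) without the second of 2 overlapping *Rbm15b* entries. When at least 50% of a peak's bases had to be shared, 9 of 27 control peaks (beside 40.7% of all) and 3 of 24 knockout peaks (beside 37.5%) were not found. When only peaks with an FDR under 1e-05 were looked up in the whole of the other list, 2 of 18 control peaks (beside 20.4% of all) and 0 of 17 knockout peaks (beside 15.4%) had no partner. With that limit in both lists the numbers were 5 of 18 (beside 33.8%) and 3 of 17 (beside 28.1%). By gene, 6 of the 8 members with peaks had a control peak that was not found in the knockout list, against 46.1% of all genes with a control peak, and 3 of 8 had a knockout peak not found in the control list, against 47.7%. Genes with many peaks have more chances to be counted this way, and 4 members had at least 4 control peaks, which 9.41% of all genes had.

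The exonic bases under peaks were fewer in knockout than in control iBAT for each of the 8 genes. The share of all genes with fewer knockout bases was not counted. Over all peaks of each list the median was 240 bases in control and 210 in knockout iBAT, so narrower knockout peaks are not particular to the members. Summed over the members they were 9987 in control and 7905 in knockout iBAT, a knockout to control ratio of 0.792, and over all genes the ratio was 0.908. Of the members' knockout bases, 87.3% lay under a control peak, and of their control bases 69.1% lay under a knockout peak. The same shares over all genes were 67.6% and 61.4%. For *Wtap*, *Cbll1* and *Rbm15* every knockout base lay within a control peak, and the share of all genes with this trait was not counted.

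**Figure D1:**
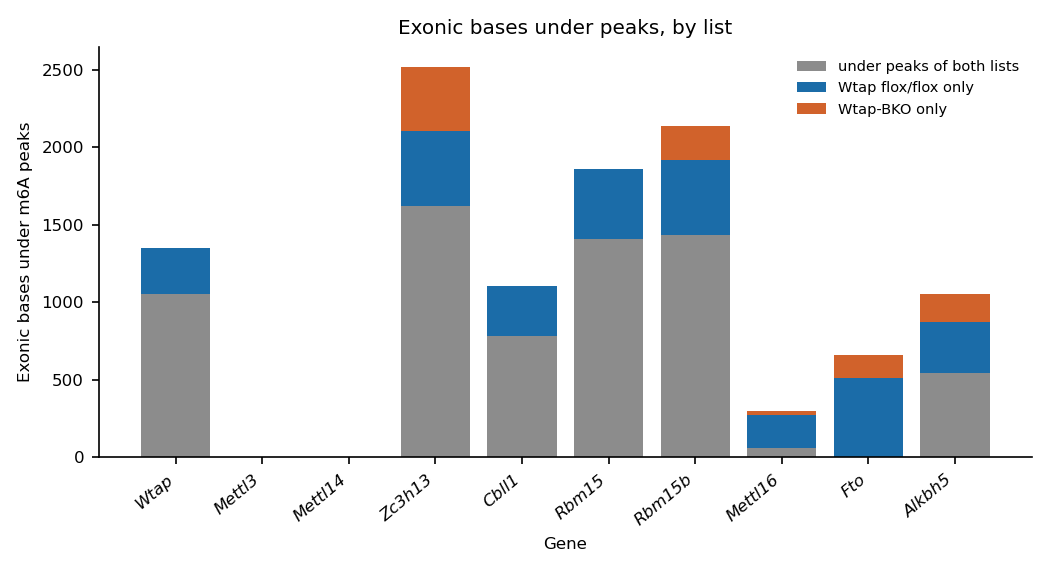
Exonic bases under m6A peaks (vertical axis, bases) for each of the 10 genes, divided into bases under peaks of both lists (grey), of control iBAT only (blue) and of knockout iBAT only (orange). *Zc3h13* had the most, with 2102 control and 2039 knockout bases, *Fto* had 0 bases in common, and *Mettl3* and *Mettl14* had none in either list.

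The median member peak was strong for its list, while single peaks ranged widely. By false discovery rate, 16 of 27 control and 16 of 24 knockout peaks stood above the middle of their list. The median control peak of a member had a stronger false discovery rate than 77.2% of the control list, from 9.70% for the weakest to 95.6% for the strongest. In the knockout list the median was 66.3%, from 4.59% to 96.0%. The median fold enrichment was 10.4 over the members' control peaks and 7.20 over their knockout peaks, beside 6.58 and 4.65 over all peaks of each list.

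**Figure D2:**
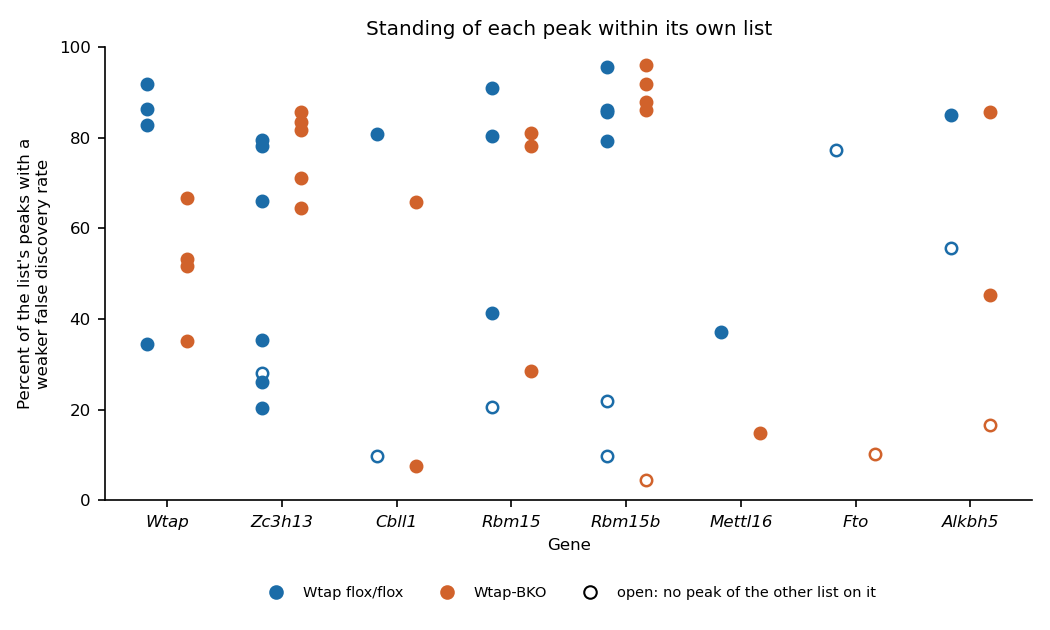
Each point is 1 peak, placed by the percent of its own list with a weaker false discovery rate (vertical axis), for control (blue) and knockout (orange) iBAT. Open points have no peak of the other list on them. The open points lie low, except the control peaks of *Fto* at 77.2% and *Alkbh5* at 55.7%.

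*Mettl3* encodes the catalytic subunit and *Mettl14* its RNA-binding partner. Neither gene had a peak in either list, under its present or an older symbol. No peak of any other gene lay inside the *Mettl3* span on chromosome 14 (52294841 to 52308741) or the *Mettl14* span on chromosome 3 (123368295 to 123385990). The lists hold no expression values, so a transcript without m6A, one too rare to call and one below the threshold look the same.

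*Wtap* (ENSMUSG00000060475, minus strand of chromosome 17) is the gene deleted in the knockout. Its 4 control peaks each had a knockout peak on them, and the 5ʹ-most peak differed from the rest. This peak, from 12992078 to 12992258, lay 375 bp from the 5ʹ end of the gene and had the same bounds in both lists. Its fold enrichment was 21.0 in control and 20.5 in knockout iBAT, with a log10 FDR of −4.68 and −6.99.

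The other 3 *Wtap* peaks had lower fold enrichment and a weaker false discovery rate in knockout iBAT. The peak from 12975250 to 12980836, made of a block of 225 bases and one of 15 bases across an intron, again had the same bounds in both lists. Its fold enrichment was 23.1 in control and 6.26 in knockout iBAT, and its log10 FDR −40.7 and −6.67. The next, from 12974592 in control and 12974652 in knockout iBAT to 12974921 in both, was the strongest *Wtap* peak of both lists, with 10.9 and 3.51 for fold enrichment and −63.1 and −11.3 for the log10 FDR.

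The last *Wtap* peak lay nearest the 3ʹ end and covered 599 exonic bases from 12967454 to 12969405 in control and 360 from 12967573 to 12967932 in knockout iBAT. Its fold enrichment was 6.72 and 1.72, the latter higher than only 4.49% of the knockout peaks. The knockout to control ratios of these 3 peaks were 0.271, 0.322 and 0.256, and 7.70%, 11.8% and 6.75% of all paired peaks had a lower ratio. The median over all 12467 paired peaks was 0.783, and 0.538 over those with a control fold enrichment of at least 10. All *Wtap* peaks but the last were in that group. Below 10 the median was 0.91. The 5ʹ-most peak had a ratio of 0.976, with 62.4% of paired peaks below it. Where exon 4 lies among these peaks was not analysed here.

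**Figure D3:**
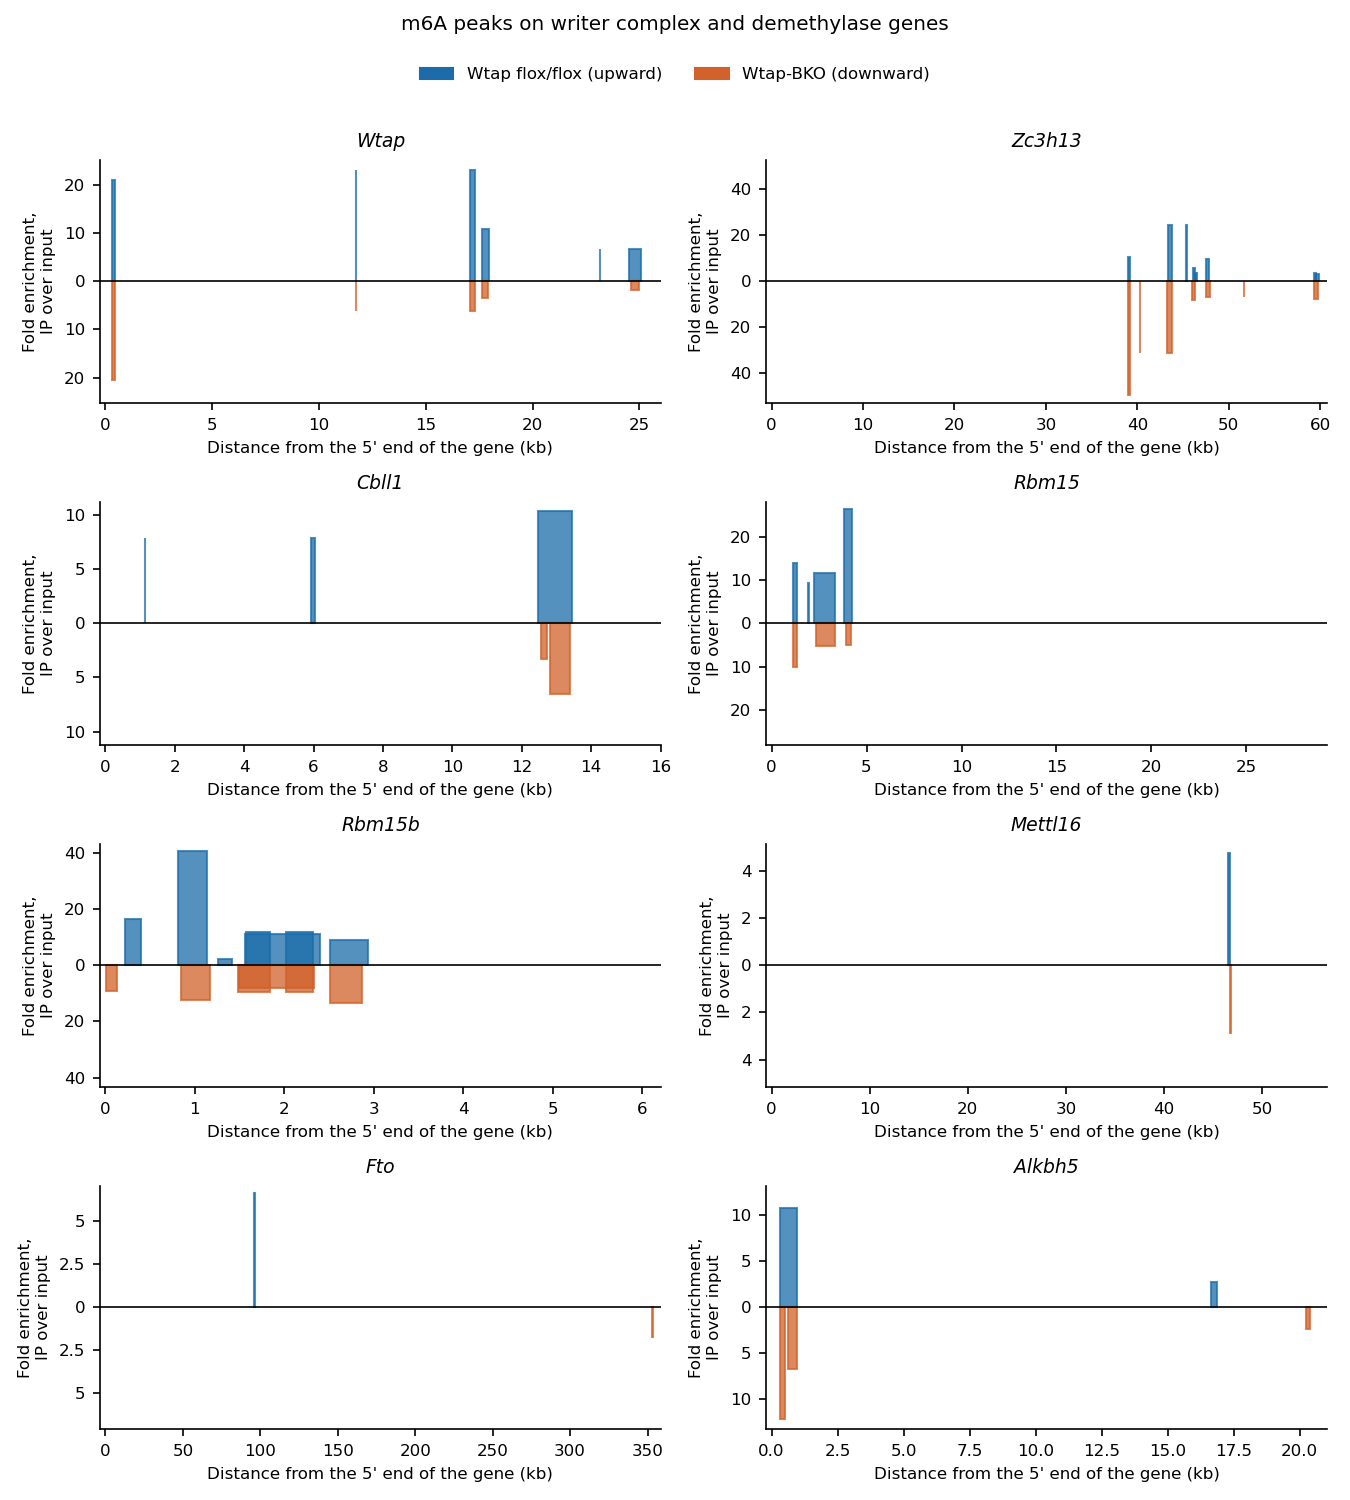
m6A peaks along the 8 genes with peaks, with the distance from the 5ʹ end of the gene in kb (horizontal axis) and fold enrichment of IP over input (vertical axis), control iBAT upward in blue and knockout iBAT downward in orange. Each bar is 1 exonic block, so a peak over 2 exons appears as 2 bars of equal height, and outlines widen the thinnest blocks. The *Wtap* peaks show near equal bars at the 5ʹ end and shorter knockout bars along the rest of the gene, and the *Fto* bars lie at different places.

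*Zc3h13* (ENSMUSG00000022000, plus strand of chromosome 14) encodes a zinc finger protein that keeps the writer complex in the nucleus. It had 7 control and 5 knockout peaks, the most of the members in control iBAT, and it was the member with higher knockout values at most of its peaks. The largest difference was at the peak that starts at 75323226, which ended at 75323525 in control and at 75323465 in knockout iBAT. Its fold enrichment was 10.6 in control and 49.3 in knockout iBAT, a ratio of 4.65 that was higher than 98.6% of all paired ratios. Its log10 FDR differed little, at −25.4 and −27.3. In the knockout list, 99.6% of peaks had a lower fold enrichment.

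At the next *Zc3h13* peak, from 75327660 to 75329727 in control and from 75324601 to 75328138 in knockout iBAT, each in 2 blocks, the fold enrichment was 24.7 and 31.1 and the log10 FDR −14.5 and −23.9. The peak ending at 75330557, which started at 75330377 in control and 75330258 in knockout iBAT, had 5.62 and 8.26, with −4.77 and −13.2. Beside it, a control peak (75330646 to 75330826) had no knockout peak on it, at a fold enrichment of 3.60 and a log10 FDR of −3.93. It was the *Zc3h13* peak not found in the other list.

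Near the 3ʹ end of *Zc3h13*, 2 control peaks, from 75343618 to 75343828 and from 75343888 to 75344187, lay under 1 knockout peak from 75343618 to 75344007. The control fold enrichments were 3.75 and 3.37, with log10 FDRs of −3.77 and −3.28, and the knockout peak had 7.68 and −10.4. The count of peaks thus differed here although the stretch was listed in both. The peak starting at 75331780, which ended at 75332169 in control and 75335992 in knockout iBAT, was the exception to the higher knockout values, with a fold enrichment of 9.87 in control and 6.71 in knockout iBAT, and −27.3 and −21.3.

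*Cbll1* (ENSMUSG00000020659, minus strand of chromosome 12) encodes HAKAI, a ubiquitin ligase of the writer complex. A control peak of 987 bases, from 31487221 to 31488207, corresponded to 2 knockout peaks, from 31487280 to 31487878 and from 31487938 to 31488118. The control fold enrichment was 10.4 with a log10 FDR of −29.1, and the knockout peaks had 6.57 with −10.9 and 3.32 with −2.26. An unnamed gene on the opposite strand (ENSMUSG00000099851) had a peak there in each list, sharing 440 bases with the *Cbll1* peak in control and 371 in knockout iBAT. Whether reads were counted by strand is not given in the sources used here, so the signal of these overlapping genes may not be separable. A second control peak, of 120 bases in blocks from 31494634 to 31499526, was near the threshold, at −2.52, and had no knockout peak on it.

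*Rbm15* and *Rbm15b* encode related RNA-binding proteins that bring the writer complex to its target transcripts. All their peaks lay in the 5ʹ part of the gene, up to 14.0% of the span for *Rbm15* and 44.3% for *Rbm15b*. On *Rbm15* (ENSMUSG00000048109, minus strand of chromosome 3) there were 4 control and 3 knockout peaks, each of the latter inside a control peak and narrower than it.

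On the strongest *Rbm15* control peak (107330201 to 107330620) the fold enrichment was 26.3 and the log10 FDR −57.8, and the knockout peak on it, of 241 bases from 107330291 to 107330531, had 5.0 and −18.0. This ratio of 0.19 was the lowest of the members' paired peaks, and 3.10% of all paired peaks had a lower one. For all pairs with a control fold enrichment of at least 10, as here, the median ratio was 0.538. The long peak from 107331099 to 107332207 covered 1109 bases in control and, from 107331129 to 107332117, 989 bases in knockout iBAT, and its fold enrichment was 11.5 and 5.26. Toward the 5ʹ end, the control peak from 107333104 to 107333344 and the knockout peak from 107333134 to 107333314 had 13.9 and 10.2. The values were thus lower in knockout iBAT at each of the 3 paired *Rbm15* peaks, least so at the 5ʹ end. The short control peak from 107332476 to 107332566, with −3.29, was not found in the knockout list.

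*Rbm15b* (ENSMUSG00000074102, minus strand of chromosome 9) held the strongest member peak of both lists. This peak ran from 106885935 to 106886263 in control and from 106885905 to 106886234 in knockout iBAT, with log10 FDRs of −100 and −73.1, stronger than 95.6% and 96.0% of their lists. Its standing by FDR was thus alike in both lists. Its fold enrichment was 40.7 and 12.3, and 10.2% of all paired peaks had a ratio below its 0.302. For all pairs with a control fold enrichment of at least 10 the median ratio was 0.538. Another *Rbm15b* peak was higher in knockout iBAT. From 106884143 in control and 106884203 in knockout iBAT to 106884561 in both, the fold enrichment was 8.99 in control and 13.6 in knockout iBAT, and the log10 FDR −27.0 and −44.6.

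The *Rbm15b* stretch between these peaks was listed as 2 entries sharing bases in each list, once unbroken and once in 2 blocks, which is a double count of 1 region. The unbroken entry ran from 106884681 to 106885517 in control and from 106884740 to 106885577 in knockout iBAT, and the entry in blocks started at 106884751 in both and ended at 106885501 and 106885589. The unbroken entry had a fold enrichment of 11 in control and 8.19 in knockout iBAT, and the entry in blocks had 11.8 and 9.48. Within a list, 281 control and 289 knockout peaks over all genes shared bases with another peak of their gene. Weak *Rbm15b* peaks differed in position. Control peaks from 106886681 to 106886861 (log10 FDR −3.40) and from 106885666 to 106885815 (−2.52) and a knockout peak from 106886950 to 106887070 (−2.03) had no partner.

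*Mettl16* (ENSMUSG00000010554, plus strand of chromosome 11) had 1 peak in each list. The control peak from 74817286 to 74817556 and the knockout peak from 74817496 to 74817586 shared 61 bases, 22.5% of the control peak. The fold enrichment was 4.78 and 2.86, and the log10 FDR −5.08 and −2.68. Both were below the middle of their lists, and when at least 50% of a peak's bases had to be shared, the control peak had no partner.

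The demethylase *Fto* (ENSMUSG00000055932, plus strand of chromosome 8), known from its association with human body weight, was the member whose peaks did not overlap at all. In control iBAT its peak from 91409286 to 91409795, 96174 bp from the 5ʹ end of the gene, showed an IP over input ratio of 6.67 and a log10 FDR of −24.3, stronger than 77.2% of the list. No knockout peak was listed there. In knockout iBAT the *Fto* peak lay from 91666582 to 91666732, 1776 bp from the 3ʹ end, with a fold enrichment of 1.72 and −2.39, stronger than 10.2% of its list. The control peak was thus a strong one without a partner, and the knockout peak was close to the threshold.

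*Alkbh5* (ENSMUSG00000042650, plus strand of chromosome 11) encodes the other demethylase. Its main stretch, near the 5ʹ end of the gene, was found in both lists, as 1 control peak from 60538020 to 60538649 and as 2 knockout peaks, from 60537990 to 60538200 and from 60538290 to 60538649. The control peak had a fold enrichment of 10.8 and a log10 FDR of −36.8, and the knockout peaks had 12.1 with −5.52 and 6.67 with −27.0. Toward the 3ʹ part the lists differed. A control peak from 60554322 to 60554561, with 2.77 and −9.58, had no knockout peak on it, and a knockout peak from 60557913 to 60558063, with 2.31 and −2.78, had no control peak on it.

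Over both demethylases, 2 of 3 control peaks and 2 of 4 knockout peaks had no partner. Over the 6 other genes with peaks these numbers were 5 of 24 and 1 of 20. The peaks are too few for a comparison of these shares with the 32.2% and 32.0% over all peaks.

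Among the 20 control peaks of the members with a knockout peak of the same gene on them, the knockout to control ratio of fold enrichment had a median of 0.707, and 14 of 20 (70.0%) were below 1. Over all 12467 such pairs the median was 0.783 and 63.7% were below 1. A ratio of 0.5 or less was found for 6 member pairs, 3 on *Wtap*, 2 on *Rbm15* and 1 on *Rbm15b*, beside 27.1% of all pairs. A ratio of 2 or more was found for 3, all on *Zc3h13*, beside 9.06% of all pairs. Of these 3, 2 share 1 knockout peak and are not independent. The doubled *Rbm15b* region also counts as 2 pairs. Control peaks with high values had lower ratios in general. Where the control fold enrichment was at least 10, the median ratio of all pairs was 0.538 and that of the 13 member pairs 0.632. Below 10 it was 0.910 over all pairs and 1.47 over the 7 member pairs. Of these 7, 4 were above 1, 3 on *Zc3h13*, including the 2 that share a knockout peak, and 1 on *Rbm15b*.

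**Figure D4:**
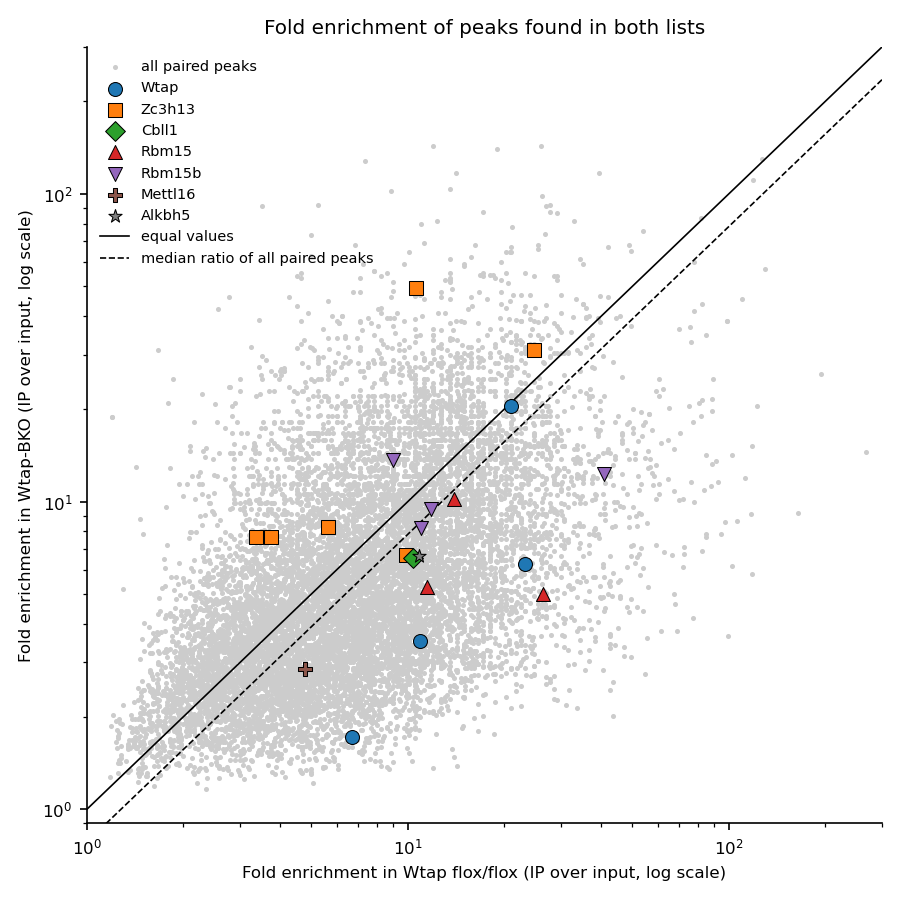
Fold enrichment of IP over input in control (horizontal axis) and knockout iBAT (vertical axis), both on log scales, for the 20 paired member peaks (coloured symbols by gene) among all 12467 paired peaks (grey). The solid line marks equal values and the dashed line the median ratio of 0.783. Of the *Wtap* peaks, 3 lie well below both lines and 1 near the solid line. Above the solid line lie 5 of the 6 *Zc3h13* pairs, among them pairs that share 1 knockout peak.

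Few member peaks lay close to the 3ʹ end of their gene. The centre of 2 of 27 control peaks (7.41%) was within 1000 bp of the 3ʹ end, both on *Zc3h13*. The share was 20.8% over 15684 control peaks of all genes, those centred inside their gene, with short genes left out. In knockout iBAT there were 3 of 24 (12.5%), on *Wtap*, *Zc3h13* and *Alkbh5*, beside 18.5% of 15975 peaks taken alike. Centres were midpoints of the whole span, introns included. The last *Wtap* control peak was centred 1630 bp from the 3ʹ end because its span reaches a block of 1 base at 12969405. The knockout peak, centred at 954 bp, lay inside its other block, of 598 bases. The difference on *Wtap* thus rests on that 1 base. Near the 5ʹ end, within the same distance, lay 4 of 27 control and 4 of 24 knockout peaks (14.8% and 16.7%). The shares over the same peaks of all genes were 10.1% and 11.3%.

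Of 31 other genes of the m6A pathway, 21 had a peak in either list, 15 in both, 5 in control iBAT only and 1 in knockout iBAT only. Of all genes with a peak in either list, 15.0% were listed in control iBAT only and 14.9% in knockout iBAT only. *Virma*, the scaffold of the writer complex, had 7 control peaks and 4 knockout peaks. The 3 control peaks without a partner were its 3 nearest the 3ʹ end, from 11526607 to 11527266 on the plus strand of chromosome 4, with fold enrichments of 7.0, 3.27 and 5.43 and log10 FDRs of −5.65, −3.18 and −3.32. The 4 *Virma* stretches upstream were listed in both.

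Among other methyltransferase genes, *Zcchc4*, which modifies 28S ribosomal RNA, had 2 weak control peaks and none in knockout iBAT, and *Trmt112*, a methyltransferase cofactor, had 1 and none. *Mettl5*, the 18S ribosomal RNA methyltransferase, had 1 peak in knockout iBAT only, with a log10 FDR of −3.04. *Mat2a*, whose product makes the methyl donor S-adenosylmethionine and whose transcript METTL16 methylates, had 2 control and 3 knockout peaks. Its strongest peak, from 72432829 to 72433337 in control iBAT on the minus strand of chromosome 6, had a fold enrichment of 3.71 in control and 4.03 in knockout iBAT and a log10 FDR of −76.8 and −118. *Mat2b*, which encodes the regulatory subunit, had a control peak of 270 bases with a fold enrichment of 3.23 and −26.2 that had no knockout peak on it. *Alkbh2* had 1 control peak, with −5.62, and none in knockout iBAT.

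The m6A readers had 25 peaks in each list, on 9 of 13 genes in control and 8 of 13 in knockout iBAT. *Igf2bp2* was the reader with a peak in control iBAT only, with −2.77. *Prrc2a* had 6 control and 2 knockout peaks, *Hnrnpa2b1* 3 and 6, and *Ythdf1* 1 and 3. The bases under these peaks were 1651 in control and 1259 in knockout iBAT on *Prrc2a*, 750 and 1291 on *Hnrnpa2b1*, and 1434 and 1286 on *Ythdf1*. On *Ythdf1*, 2 of the knockout peaks lay on the 1 control peak. The strongest peak of *Prrc2a*, with −104 and −65.2, and that of *Hnrnpa2b1*, with −91.2 and −178, were in both lists.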

How the data were processed

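MeRIP-seq of 4 samples was read from 2 deposited peak lists, 1 per genotype. The authors called peaks on 1 pooled IP against 1 pooled input. The methods name MACS2, and the spliced blocks are of the kind exomePeak writes. The submitters' processing notes name fastp 0.19.11, BWA 0.7.12, HOMER 4.9.1 and GRCm38.p6. The authors deposited a p-value per peak, this p-value and the false discovery rate as log10 scores, and the fold enrichment, a ratio of IP over input whose scaling is not given in the sources used here. All peaks have a false discovery rate under 0.05.

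Peaks were matched in Python 3.11.15 with numpy 2.4.6, scipy 1.17.1 (95% Wilson intervals) and matplotlib 3.10.9. Members were taken by symbol. Each control peak was paired with the knockout peak of the same gene that shared most bases. Gene spans came from a RefSeq table of GRCm38.p6, in which 95.9% of control and 95.2% of knockout peaks with a listed symbol lay inside their gene. Matching was tested on simulated data. No replicate exists, so no test was made. Depth is unknown. The members and lists were chosen with earlier results of these data known. The named genes are all members and, of the other pathway genes, *Virma*, *Mat2a* and those with peaks in 1 list or differing by 2 or more peaks.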

Additional observations from a re-analysis of the deposited data

How the results depend on the processing

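No paired analysis was possible because each genotype has 1 pooled IP and 1 pooled input, and no replicate could be left out. When the search took only peaks below 1e-05 in false discovery rate and looked them up in the whole of the other list, 2 of 18 control peaks of the members (*Fto* and *Alkbh5*, beside 20.4% of all) and 0 of 17 knockout peaks (beside 15.4%) were not found. With 1e-05 in both lists these were 5 of 18 and 3 of 17. Then 2 members had peaks in control iBAT only (*Fto* and *Mettl16*, beside 20.6% of all genes with such a peak). Of the other pathway genes 0 were in knockout iBAT only, beside 14.5% of all genes with such a peak. The share in control iBAT only was 20.6%, as above. In control iBAT only there were 5 such genes, as before, but *Alkbh1*, *Alkbh4* and *Hnrnpc* took the place of *Igf2bp2*, *Trmt112* and *Zcchc4*, beside *Alkbh2* and *Mat2b*. At least 50% shared bases gave 9 control and 3 knockout peaks not found (beside 40.7% and 37.5% of all). Whole spans, a partner on the same gene, and leaving out the second *Rbm15b* entry, an alternative chosen after seeing the data, gave 7 and 3 as before, the last of these with an upper limit of 32.1% in place of 31.0% for the knockout share. The members' bases at 1e-05 were 8391 and 6669, with 5426 shared. Ranked by fold enrichment, the median member peak stood above 68.7% of the control and 66.8% of the knockout list. What a weak peak shows is limited by the depth, which is unknown.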
